A study of Saccharomyces cerevisiae BY4741 with 6 samples.

Results

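The genes described here encode the proteasome of *Saccharomyces cerevisiae* and the transcription factor that controls it. They were chosen by symbol alone, as the genes named *PRE*, *PUP*, *RPN* or *RPT* followed by a number, and *SCL1*, a rule that uses no measured value. The symbols matched 34 of the 5449 genes that the arrays measured, each with 1 probe set. Of these, 14 encode subunits of the 20S core and 18 encode subunits of the 19S regulatory particle. The other members are *RPN4*, which encodes the transcription factor, and *RPN14*, which encodes an assembly chaperone, and neither protein is a subunit of the finished complex. The lid subunit Sem1, also called Rpn15, carries a symbol that the choice did not match, and its gene is described separately.

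Wild-type BY4741 cells, a haploid laboratory strain, were grown exponentially in YPD, a rich medium, at 30 °C. Cultures were either left untreated or exposed for 4 h to 10 mg/mL neomycin, an aminoglycoside antibiotic supplied as its sulfate, in a study of how yeast responds to this compound at the cell surface. Each group held 3 independent biological samples, with a separate Affymetrix Yeast Genome 2.0 array for each, and the 6 arrays carried the only comparison of the design, neomycin against untreated. All values are log2 expression values (GCRMA), so a difference of 1 is a doubling of the signal, and every gene is compared only with itself. These are signals from bulk cultures scaled between arrays, so a change in some of the cells and a smaller change in all of them cannot be told apart, and a change in the total RNA of a cell was not measured.

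The 26S proteasome degrades proteins that carry chains of ubiquitin. Its barrel-shaped core is a stack of α rings outside and β rings inside, with the peptide-cutting sites in the β rings, and the regulatory particle at the end of the barrel binds the ubiquitin chain, removes it, unfolds the substrate with a ring of ATPases and feeds it into the core. In budding yeast Rpn4 binds the promoters of most of the subunit genes and activates them together, and the proteasome in turn rapidly degrades Rpn4, so a loss of proteasome activity lets Rpn4 accumulate and raises the transcription of the subunit genes. Much of this control therefore acts on the Rpn4 protein, which arrays do not measure. Aminoglycosides bind ribosomes and can lower the accuracy of translation, and misread proteins are substrates of this pathway.

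The arrays correlated with one another at 0.979 to 0.993 over all probe sets. *LEU2*, *MET17* and *URA3*, which BY4741 lacks, lay between 3.21 and 4.90 on all arrays, in a table that ran from 2.44 to 14.31. *HIS3*, of which this strain carries a partial deletion, lay between 10.23 and 10.66, and whether its probes fall in the deleted part was not tested. Neomycin replicate 2 stood apart from the other neomycin arrays for the proteasome genes, so the fold changes of the genes shown on every array are also given without it. That array was the highest neomycin array in every member, so leaving it out lowers each member's value by construction. Over all genes limma called 28 at an adjusted p under 0.05, 23 of them higher and 5 lower with neomycin.

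Neomycin was followed by no detected change in the mRNA of any proteasome gene. None of the 34 genes had an adjusted p under 0.05 in the limma fit, against 0.514% of all genes, and the lowest adjusted p among them was 0.456, for *RPN14*. None reached an unadjusted p under 0.05 either, which 13.4% of all genes did. The ratio of the mean linear signals, neomycin over untreated, ran from 0.875 for *RPN14* to 1.08 for *RPN13*. No member met the fold criteria of the study's methods, which take a gene as induced from a ratio of 1.7 upwards and as repressed from 0.6 downwards, together with a Cyber-T p no higher than 0.05, while 1.82% of all genes did.

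Limits on a change were computed gene by gene, without allowance for a shift that the members share on an array. For each of the 34 genes the 95% interval of the log2 fold change from limma lay within 0.5 of 0, which held for 62.1% of all genes. Among the 32 subunit genes the intervals allowed a fold change between 0.709 and 1.40 at the extremes, the lower bound belonging to *RPT3* and the upper one to *RPN13*. The standard errors of the subunit genes ran from 0.10 to 0.17. The median log2 fold change of the 32 subunit genes was −0.03, beside −0.05 over all genes. Of the 34 members 26 had a value below 0, that is 76.5%, against 62.1% of all genes. That split depended on how the arrays were scaled, with 15 members below 0 when each array was centred on its median and 17 after another quantile normalisation.

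**Figure D1:**
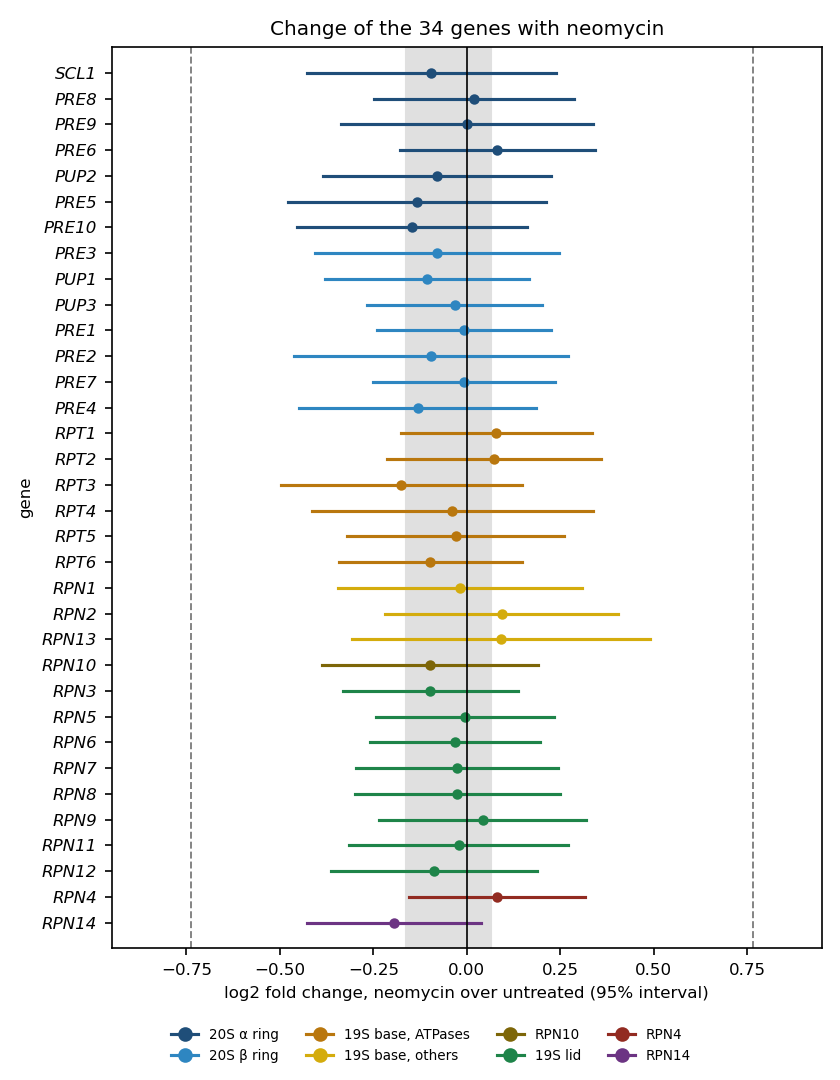
Log2 fold change of each of the 34 genes, neomycin over untreated, with its 95% interval from limma (points and lines, 3 arrays a group). Dashed lines mark ratios of 1.7 and 0.6 on the log2 scale, the grey band is the interquartile range of all 5449 genes, from −0.16 to 0.07, and every interval contains 0 and lies between the dashed lines.

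*RPN4* (YDL020C) encodes the activator of the subunit genes. Its log2 signal was 9.99, 10.02 and 9.88 on untreated arrays 1, 2 and 3 and 9.98, 10.14 and 10.01 on neomycin arrays 1, 2 and 3. The groups overlapped, with neomycin arrays 1 and 3 inside the untreated range and neomycin array 2 the highest of the 6. The mean was 9.96 ± 0.07 (SD, n = 3) in untreated cells and 10.04 ± 0.09 (SD, n = 3) with neomycin. The log2 fold change was 0.08 with a standard error of 0.10 and a 95% interval from −0.16 to 0.32 (limma, adjusted p = 0.808), and the exact 2-sided permutation test of the 3 against 3 arrays gave p = 0.5, where 0.1 is the smallest value it can give. The upper end of that interval is a 1.24-fold higher signal, and without neomycin array 2 the log2 fold change was 0.03. When each array was centred on its median or normalised again, all neomycin arrays lay above all untreated arrays for *RPN4*, without a call. The same held for 9.1% of all genes after centring and for 8.57% after another quantile normalisation.

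Among the 14 core genes the median of the log2 fold changes was −0.08, with 2 above 0 and 12 below. The α ring genes, whose products form the gated entrance of the barrel, ranged from −0.15 for *PRE10* to 0.08 for *PRE6*, and the β ring genes from −0.13 for *PRE4* to −0.01 for *PRE7*. *PRE10* (YOR362C), the α7 subunit, read 11.65, 11.40 and 11.47 on the untreated arrays and 11.23, 11.60 and 11.25 with neomycin. Neomycin arrays 1 and 3 lay below every untreated array and neomycin array 2 lay among them. The log2 fold change of *PRE10* was −0.15 with a standard error of 0.13 (limma, adjusted p = 0.702), and it was −0.26 without neomycin array 2.

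*PRE5*, the α6 subunit, read 10.68, 10.52 and 10.65 untreated and 10.30, 10.80 and 10.33 with neomycin. Neomycin arrays 1 and 3 were again the lowest of the 6, and neomycin array 2 was the highest. *PRE5* had a log2 fold change of −0.13 (limma, adjusted p = 0.768), and without neomycin array 2 the value was −0.30 (limma, adjusted p = 0.292). With neomycin array 1 or neomycin array 3 left out instead, it was −0.05 and −0.06. *PRE4*, the β7 subunit, gave 11.02, 11.22 and 10.95 untreated against 10.98, 11.12 and 10.70 with neomycin, a log2 fold change of −0.13 (limma, adjusted p = 0.745), or −0.23 without neomycin array 2. Here untreated array 2 was the highest, and only neomycin array 3 lay below all untreated arrays.

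At the other end, *PRE6*, the α4 subunit, read 11.62, 11.67 and 11.77 untreated and 11.63, 11.92 and 11.74 with neomycin, a log2 fold change of 0.08 (limma, adjusted p = 0.828). *PRE8*, the α2 subunit, read 10.92, 11.01 and 10.88 untreated and 10.87, 11.15 and 10.86 with neomycin, a log2 fold change of 0.02. *PRE9*, the α3 subunit and the only core subunit that yeast can live without, read 10.83, 10.89 and 10.92 untreated and 10.62, 11.17 and 10.85 with neomycin, so that its group means were equal to 2 decimals, at 10.88. In all 3 genes neomycin array 2 was the highest, and the groups overlapped. Without that array the log2 fold changes of *PRE6*, *PRE8* and *PRE9* were 0.0014, −0.07 and −0.15.

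The catalytic subunits, named here for their role, were near the middle of the core. *PRE3* (β1, the caspase-like site) had a log2 fold change of −0.08, *PUP1* (β2, the trypsin-like site) of −0.11 and *PRE2* (β5, the chymotrypsin-like site) of −0.10. Their adjusted p-values in limma were 0.869, 0.767 and 0.858, and without neomycin array 2 the values were −0.23, −0.20 and −0.26. The remaining core genes were *SCL1* (−0.09), *PUP2* (−0.08), *PUP3* (−0.03) and *PRE1* (−0.01), and both groups overlapped in each.

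Among the 18 genes of the regulatory particle the median was −0.03, with 5 above 0 and 13 below. In the base, the part that sits on the core, the 6 ATPase genes *RPT1* to *RPT6* had a median of −0.03 and ranged from −0.17 to 0.08. *RPT3*, the ATPase gene with the lowest value, read 10.72, 10.72 and 10.55 untreated and 10.51, 10.73 and 10.24 with neomycin. Neomycin arrays 1 and 3 were the lowest of the 6 and neomycin array 2 was level with the highest untreated arrays. Its log2 fold change was −0.17 with a standard error of 0.14 (limma, adjusted p = 0.653), the lowest of any subunit gene, and −0.29 without neomycin array 2.

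*RPT6* read 11.34, 11.44 and 11.44 untreated and 11.19, 11.44 and 11.29 with neomycin, a log2 fold change of −0.10 (limma, adjusted p = 0.757). *RPT1* read 11.39, 11.45 and 11.48 untreated and 11.38, 11.68 and 11.50 with neomycin, a log2 fold change of 0.08 (limma, adjusted p = 0.828). The groups overlapped in both ATPase genes, *RPT6* on the low side and *RPT1* on the high side. Without neomycin array 2 the values were −0.16 for *RPT6* and −0.00017 for *RPT1*. *RPT2* (0.07), *RPT4* (−0.04) and *RPT5* (−0.03) lay between them.

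Of the non-ATPase base genes, *RPN2*, a scaffold, and *RPN13*, a ubiquitin receptor, had the highest log2 fold changes of all subunit genes, 0.09 each, and in neither did the groups separate. *RPN2* (YIL075C) read 10.74, 11.18 and 11.14 untreated and 11.07, 11.15 and 11.12 with neomycin. Untreated array 1 alone was low, and the other 5 arrays lay close together, so the value became −0.05 without untreated replicate 1, while it was 0.08 without neomycin array 2. *RPN13* (YLR421C) read 10.13, 9.75 and 9.94 untreated and 9.86, 10.39 and 9.85 with neomycin. Only neomycin array 2 was above the untreated range, and without it the value was −0.09. The ubiquitin receptor gene *RPN10*, whose product sits between base and lid, read 10.77, 10.68 and 10.62 untreated and 10.58, 10.79 and 10.39 with neomycin, a log2 fold change of −0.10 (limma, adjusted p = 0.808), or −0.20 without neomycin array 2. *RPN1*, the third receptor gene, had a value of −0.02.

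The lid carries the deubiquitinating subunit Rpn11. Its 8 genes *RPN3*, *RPN5*, *RPN6*, *RPN7*, *RPN8*, *RPN9*, *RPN11* and *RPN12* ran from −0.10 for *RPN3* to 0.04 for *RPN9*, with a median of −0.03, and *RPN11* itself was at −0.02. The lid gene outside the symbol rule, *SEM1*, read 10.45, 10.50 and 10.85 untreated and 10.57, 10.54 and 10.97 with neomycin, a log2 fold change of 0.09 (limma, adjusted p = 0.862), or 0.17 without neomycin array 2. Array 3 of each group was the high one for *SEM1*, and neomycin array 2 was the lowest of the neomycin arrays, in contrast to every matched member.

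*RPN14* (YGL004C) was the only member whose groups did not overlap, 1 of 34 or 2.94%, where 18.4% of all genes did not overlap, 12.8% with neomycin below and 5.58% with neomycin above. Rpn14 is a chaperone that helps the ATPase ring to assemble. Its gene read 8.39, 8.32 and 8.35 untreated and 8.04, 8.24 and 8.19 with neomycin, so every neomycin array was below every untreated array. The log2 fold change was −0.20 with a standard error of 0.10 and an interval from −0.43 to 0.04 (limma, adjusted p = 0.456), and the exact permutation p was 0.1, the smallest possible. Without neomycin array 2 the value was −0.24.

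The pattern that the subunit genes shared lay within the neomycin group and not between the groups. Neomycin replicate 2 was the highest of the 3 neomycin arrays in 34 of the 34 genes, against 52.2% of all genes, and the highest of all 6 arrays in 26 of them (76.5%), against 27.5% of all genes. The exceptions to the latter were *PRE4*, *PRE10*, *RPN2*, *RPN3*, *RPN6*, *RPN12*, *RPN14* and *RPT6*. All 32 subunit genes were above their untreated mean on neomycin array 2, 31 were below it on neomycin array 1 and 28 on neomycin array 3. Over all 5449 genes, 2986 were above it on neomycin array 2, 3862 below it on neomycin array 1 and 3204 on neomycin array 3. The median difference of the subunit genes from their untreated mean was −0.12, 0.19 and −0.12 on neomycin arrays 1, 2 and 3, and the same median over all genes was −0.11, 0.03 and −0.05. The subunit median minus the all-gene median was thus −0.007, 0.16 and −0.07, so on neomycin array 1 the subunit genes lay with all genes. On the untreated arrays the subunit median stayed between −0.01 and 0.01, partly because each gene's reference is the mean of those arrays. Part of the contrast moved with the scale of the arrays, whose medians over all probe sets were 8.84, 8.93 and 8.88 with neomycin. Centred on those medians, neomycin array 2 was the highest of the neomycin arrays in 31 of 34 genes, against 40.2% of all genes, and after another quantile normalisation in 30 of 34, against 36.6%. With 1 array standing apart for these genes, what distinguished that culture or array was not tested. The 6 genes of mating type a that were looked at had medians of −0.35, −0.78 and −0.58 on neomycin arrays 1, 2 and 3. The 4 genes of mating type α had −0.40, −0.51 and −0.61. Neomycin array 1 thus differed least from untreated in both sets. Whether the neomycin cultures responded to unlike extents was not tested.

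**Figure D2:**
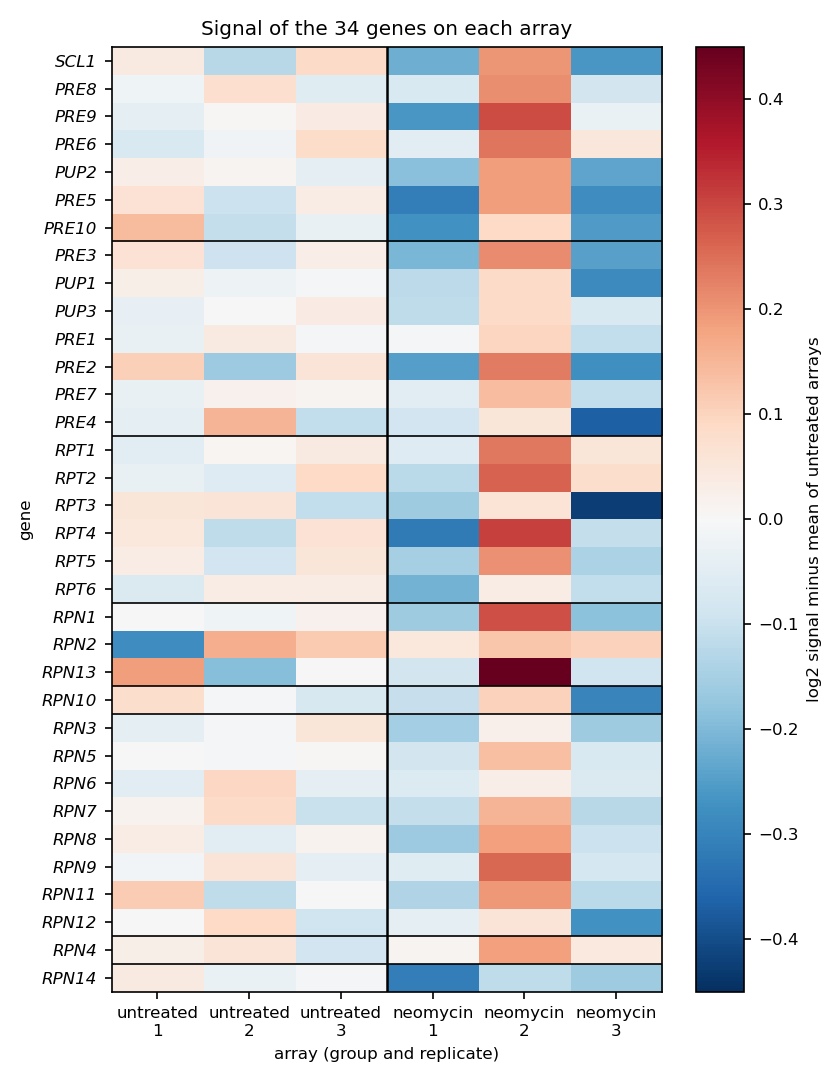
Log2 signal of the 34 genes (rows) on the 6 arrays (columns) as the difference from the gene's untreated mean, in colour. The column of neomycin replicate 2 holds the highest value of the 3 neomycin arrays in every row. The untreated columns stay close to 0 in most rows, partly because their mean is the reference.

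The neomycin arrays were more spread than the untreated ones for these genes. The high values of neomycin array 2 enter that spread, so it is not a separate observation. The SD of the neomycin arrays exceeded that of the untreated arrays in 32 of 34 genes (94.1%), against 61.6% of all genes, and the exceptions were *RPN2* and *RPN6*. The median SD of the subunit genes was 0.08 untreated and 0.19 with neomycin, beside 0.13 and 0.16 over all genes. Without neomycin replicate 2, both remaining neomycin arrays lay below all untreated arrays in 23 of 34 genes (67.6%), against 27.5% of all genes. These were 10 of the 14 core genes, 4 of the 9 base genes, 7 of the 8 lid genes, *RPN10* and *RPN14*, and *RPN4* was not among them. Leaving out the array that was highest in every member lowers all their neomycin means, so the excess over all genes was partly set by that choice. Neomycin arrays 1 and 3 also had the lowest medians over all probe sets, 8.84 and 8.88, and the count was not repeated after centring. Without neomycin replicate 2 the median of the core was −0.21, no member was called, and the lowest adjusted p from limma was 0.292. With neomycin replicate 1 left out instead, 1 member was below the untreated range and 1 above it, against 16.9% and 14.2% of all genes, and with neomycin replicate 3 left out 1 was below, against 17.4%.

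The core and the regulatory particle were compared as medians on each array, with no test. Differences were taken from each gene's untreated mean, which itself pulls the untreated values towards 0. The core minus regulatory particle median was 0.00 on untreated arrays 1 and 2 and 0.01 on untreated array 3. With neomycin it was −0.04, 0.02 and −0.13 on arrays 1, 2 and 3, so it went to both sides and was largest on neomycin array 3. The median log2 fold change of the core was lower than that of the regulatory particle by 0.05, and no error was computed for this difference. On neomycin arrays 1, 2 and 3 the α ring median was −0.22, 0.20 and −0.24 and the β ring median was −0.11, 0.10 and −0.24. The base median was −0.15, 0.24 and −0.11 and the lid median −0.09, 0.14 and −0.11. All 4 groups of subunits thus had neomycin array 2 above and neomycin arrays 1 and 3 below their untreated mean. The all-gene medians went the same way, at −0.11, 0.03 and −0.05 on neomycin arrays 1, 2 and 3.

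**Figure D3:**
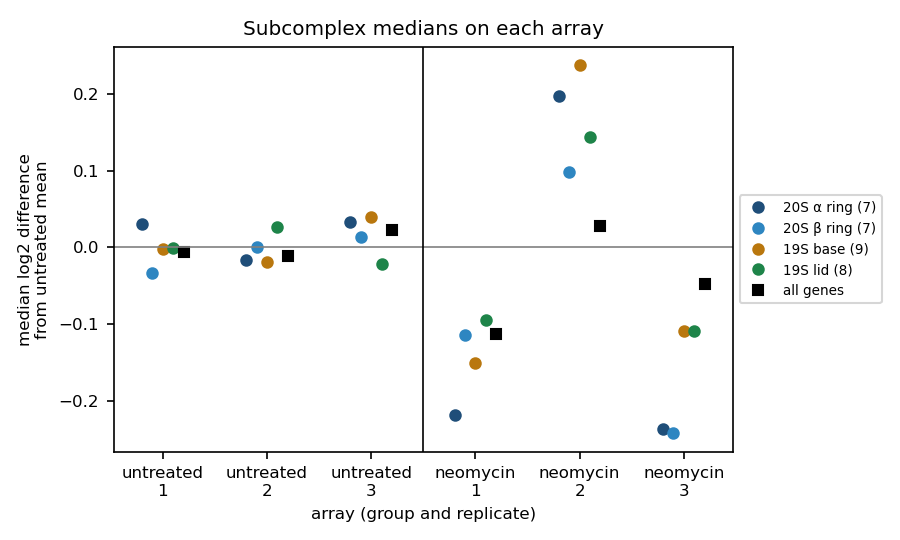
Median difference of log2 signal from the untreated mean on each array for the α ring, the β ring, the base, the lid and all genes. All 4 subunit groups reach 0.10 to 0.24 on neomycin array 2 and −0.09 to −0.24 on neomycin arrays 1 and 3. The all-gene medians are −0.11, 0.03 and −0.05 on neomycin arrays 1, 2 and 3, so on neomycin array 1 the lid and the β ring lie close to all genes.

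In the genome, 2 pairs of subunit genes lie with a single gene between them, and they are described here after their values were seen. *PRE4* and *RPN12* lie on either side of *RET2*, and *RPN12* read 10.28, 10.37 and 10.19 untreated and 10.23, 10.34 and 10.00 with neomycin. In both genes untreated array 2 was the highest and neomycin array 3 the lowest, an order found in 3 of the 34 members. The other member with it, *RPN6*, lies on another chromosome, and the share of all genes with this order was not counted. *RPT4* and *RPN8* lie on either side of *GCD1*. *RPT4* read 11.10, 10.94 and 11.12 untreated and 10.74, 11.36 and 10.95 with neomycin, and *RPN8* read 10.90, 10.82 and 10.88 untreated and 10.70, 11.05 and 10.77 with neomycin. In this pair neomycin array 2 was the highest and neomycin array 1 the lowest, an order found in 10 of the 34 members and so not particular to it. Without neomycin array 2 the log2 fold changes of *RPN12*, *RPT4* and *RPN8* were −0.16, −0.21 and −0.13.

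Other genes of the pathway were taken from 6 lists set by known role, 53 genes in all, and limma called none of them. None met the methods' ratio and Cyber-T criteria either, which 1.82% of all genes did. An unadjusted p under 0.05 in limma was reached by 2 of the 53, and by 13.4% of all genes. The groups did not overlap in 5 (9.43%, against 18.4% of all genes). These lay above the untreated range in *UBI4* and *FUB1* and below it in *RFU1*, *UBP14* and *POC4*. Neomycin replicate 2 was the highest neomycin array in 52.2% of all genes. In the lists it was so in 3 of 9 assembly chaperones, 5 of 8 bound factors and 4 of 8 ubiquitin supply genes. It was also so in 5 of 9 shuttle and Cdc48 genes, 5 of 11 conjugation genes and 4 of 8 regulators of *RPN4*.

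The widest differences were in the supply of ubiquitin. *UBI4*, the stress-inducible polyubiquitin gene, read 10.54, 10.15 and 10.06 untreated and 10.62, 11.22 and 11.05 with neomycin. All neomycin arrays lay above the untreated ones, neomycin array 1 by little. The log2 fold change was 0.71 with a standard error of 0.19 and an interval from 0.28 to 1.14 (limma, adjusted p = 0.181). The ratio of mean signals was 1.65, short of the 1.7 in the methods' criteria, with an unadjusted p of 9e-05 in the rebuilt Cyber-T test. Without neomycin replicate 1 the value was 0.89 and passed the test (limma, adjusted p = 0.0342), and over all the alternatives the adjusted p ran from 0.0342 to 0.578. Without neomycin array 2 the value was 0.59. *RFU1*, which encodes an inhibitor of the deubiquitinating enzyme Doa4, read 8.83, 9.03 and 9.07 untreated and 8.64, 8.04 and 8.64 with neomycin. Every neomycin array was below the untreated range, and neomycin array 2 was the lowest by far, the reverse of its place in the subunit genes. Its log2 fold change was −0.54 with a standard error of 0.17 (limma, adjusted p = 0.274), and it was −0.34 without neomycin array 2. The ratio of mean signals for *RFU1* was 0.70, above the 0.6 of the criteria, with an unadjusted Cyber-T p of 0.00286. The genes that supply ubiquitin fused to ribosomal proteins, *RPL40A*, *RPL40B* and *RPS31*, had log2 fold changes of 0.06, 0.01 and 0.07.

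Among the assembly chaperones, *HSM3*, which binds an ATPase of the base, had a log2 fold change of −0.40 (limma, adjusted p = 0.497) and *UMP1*, which guides the maturation of the core, one of 0.19 (limma, adjusted p = 0.636). *HSM3* read 7.86, 7.35 and 7.79 untreated and 7.15, 7.75 and 6.91 with neomycin, with neomycin array 2 high as in the subunit genes. *UMP1* read 10.18, 10.54 and 10.19 untreated and 10.66, 10.28 and 10.55 with neomycin, with neomycin array 2 the low one of its group. Both sets of arrays overlapped in these genes. With 1 array left out at a time *HSM3* ran from −0.64, without neomycin array 2, to −0.22, without neomycin array 3, and *UMP1* was 0.30 without neomycin array 2. The median of the 9 chaperone genes was −0.03.

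The regulators of *RPN4* had a median of 0.03 over 8 genes. *HSF1*, the heat shock transcription factor, which can activate *RPN4*, read 8.39, 8.88 and 8.38 untreated and 8.90, 8.58 and 9.07 with neomycin, a log2 fold change of 0.30 (limma, adjusted p = 0.530). *UBR2*, the ubiquitin ligase that marks Rpn4 for degradation, read 6.77, 7.39 and 7.50 untreated and 7.17, 7.77 and 7.49 with neomycin, a log2 fold change of 0.26 (limma, adjusted p = 0.682). Groups overlapped in both, and untreated array 1 was the low one for *UBR2*, whose value was 0.03 without it and 0.11 without neomycin array 2. *HSF1* ran from 0.19 to 0.46 with 1 array left out at a time and was 0.43 without neomycin array 2.

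Of the factors bound to the proteasome, *SPG5* and *STS1* had the largest values, 0.14 each. *SPG5* read 9.48, 9.56 and 9.73 untreated and 9.70, 9.80 and 9.69 with neomycin, and *STS1* read 9.27, 9.40 and 9.26 untreated and 9.41, 9.39 and 9.52 with neomycin. In each gene 1 untreated array lay within the neomycin range, and without neomycin array 2 the values were 0.10 and 0.16. Of the shuttle and Cdc48 genes the largest differences were those of *RAD23* (−0.15), which carries ubiquitinated proteins to the proteasome, and *OTU1* (−0.14), a deubiquitinating enzyme that binds Cdc48. *RAD23* read 10.64, 10.66 and 10.62 untreated and 10.35, 10.72 and 10.40 with neomycin, and *OTU1* read 7.96, 8.07 and 7.80 untreated and 7.91, 7.84 and 7.65 with neomycin. Neomycin array 2 was the highest of the 6 for *RAD23* and not for *OTU1*, and without it the values were −0.27 and −0.16.

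**Figure D4:**
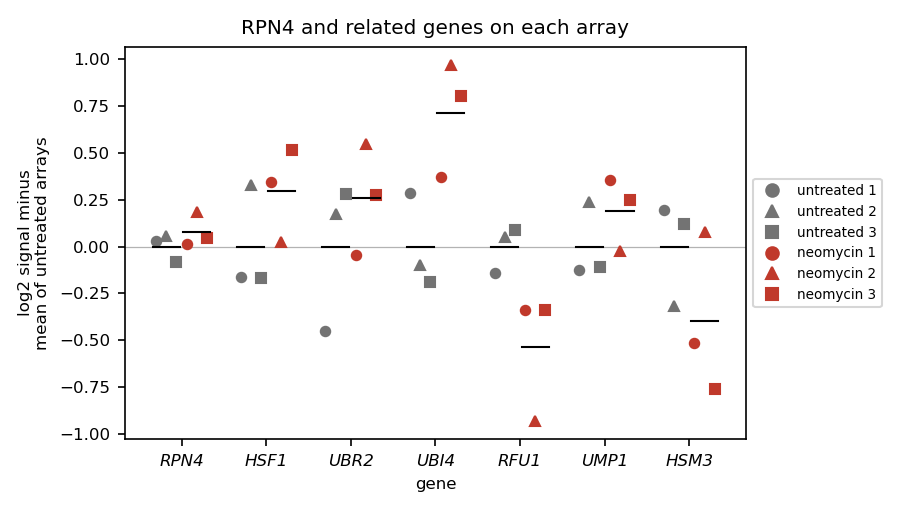
Log2 signal of *RPN4* and 6 related genes on each array as the difference from the untreated mean of that gene, grey for untreated and red for neomycin, with the marker shape giving the replicate number and black bars the group means. *UBI4* and *RFU1* are the plotted genes whose groups do not overlap, and *RPN4* varies least.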

How the data were processed

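Total RNA from 3 untreated and 3 neomycin-treated BY4741 cultures was hybridised to Affymetrix Yeast Genome 2.0 arrays. The deposited log2 values were made by the authors with GCRMA, which corrects background, normalises between arrays and summarises the probes of a probe set; for its version nothing was given in the sources used here, and the log2 scale was read from the values. The table held 5716 probe sets, of which 5498 named 1 gene and 218 named none, and the highest-mean probe set was kept for the 47 genes with several, leaving 5449 genes. Names came from the array annotation and all 34 members matched RefSeq.

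limma 3.58.1 in R 4.3.3 (lmFit, eBayes, 2-sided) was fitted to all genes with Benjamini-Hochberg adjustment and a threshold of 0.05. Summaries used Python 3.11.15. The fit was tested on data of the same size, simulated from the model that limma itself assumes, with independent errors. There it called 86.0% of genes set to a log2 change of 1 and 99.0% at 2. It also called 11 unchanged genes. Smaller changes and arrays that move many genes together were not simulated. The methods' criteria were rebuilt with a Cyber-T style prior (window 101, confidence 10), settings that were assumed. Values on every array are given for *RPN4*, the 3 highest and 3 lowest members of the core and of the regulatory particle, and any called, with 2 genes from each related list; other genes are named for their role, position or because their groups did not overlap. The symbol rule uses no measured value, but the members and lists were proposed with earlier results of these data known. The alternatives tried were a replicate block, another quantile normalisation, centring, a filter on dim genes, other probe set rules, other prior settings, and leaving out each array. The number of arrays limits the precision.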

Additional observations from a re-analysis of the deposited data

How the results depend on the processing

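No member was called under any alternative, which included the replicate block, quantile normalisation, centring, the filter on dim genes, intensity trend, robust prior, an adjusted p under 0.1 and leaving out each array. Leaving out 1 array at a time moved the median log2 fold change of the core between −0.21 and −0.00, of the regulatory particle between −0.13 and 0.03, of all subunits between −0.15 and 0.01, and *RPN4* between 0.03 and 0.11. The core median minus the regulatory particle median ran from −0.08 to −0.03, in fits that share most of their arrays. On the single neomycin arrays 1, 2 and 3 this difference was −0.04, 0.02 and −0.13. *PRE9* turned positive with quantile normalisation (0.011) and centring (0.036) and ran from −0.15 to 0.13 with 1 array left out. In the same settings *PRE8* ran from −0.075 to 0.071, *RPN13* from −0.087 to 0.18, *RPN2* from −0.047 to 0.17 and *RPT1* from −0.00017 to 0.15; the cause was not tested. Of the 53 related genes, 0 to 1 were called, *UBI4* without neomycin replicate 1. With the replicate block 0 of 5449 genes were called (limma, adjusted p = 0.842 for *RPN4* and 0.573 for *RPN14*). The deviations of same-numbered arrays from their group means correlated at −0.00, −0.38 and 0.44, and those of differently numbered arrays from −0.43 to 0.40. Deviations from a mean of 3 arrays are tied to one another, so these values cannot decide whether the numbers pair the samples. The methods name independent samples and no pairing, so the main fit used none. Total calls were 28 as reported, 55 with quantile normalisation (50 higher), 49 with centring (42 higher), 47 with the filter on dim genes, 62 with an intensity trend, 142 without neomycin replicate 1, 2 without untreated replicate 3 and 0 without any of the other 4 arrays. With 3 arrays a group, and neomycin replicate 2 apart for the proteasome genes, small coordinated shifts could not be resolved. A planned search of promoters for the Rpn4 site was not analysed here.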

Other observations

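The genes of ubiquitin conjugation, from the E2 enzymes to the ligases, had a median log2 fold change of −0.13 over 11 genes, against −0.05 over all genes, with 4 above 0 and 7 below and none called by limma. *SSM4*, the ligase also called Doa10, and *HRD1*, both ligases of the endoplasmic reticulum that mark misfolded proteins, had values of −0.15 each (limma, adjusted p = 0.727 and 0.686). *SSM4* read 10.88, 10.52 and 10.82 untreated and 10.33, 10.80 and 10.63 with neomycin, and *HRD1* read 9.09, 8.97 and 8.74 untreated and 8.86, 8.86 and 8.63 with neomycin. The groups overlapped in both genes, and without neomycin replicate 2 the values were −0.26 and −0.19. *UBC4*, an E2 for short-lived and abnormal proteins, was at −0.15, and its paralog *UBC5* at 0.07, both named after their values were seen.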
